A study of Mus musculus with 66 samples.

Results

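The regions described here are the 6398 Nr5a2 peaks that carry the class code eB in the authors' deposited peak list, 18.1% of its 35266 peaks. They were chosen by that code alone. The other codes are dB with 3621 peaks, nB with 2277 and L with 22970. The sources used here do not define the codes, and their meaning was not guessed. How a peak was given its code is not stated either. It is taken here to rest on the ChIP-seq signal of the same libraries, so the width, spacing and position of the peaks, which come from the same data, are given as descriptions with no test.

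The peaks come from 12 ChIP-seq libraries of wild-type E14Tg2a mouse embryonic stem cells of the 129/Ola background, 3 each of Nr5a2 in mitosis, Nr5a2 in interphase, input in mitosis and input in interphase. RNA-seq was made in an E14Tg2a derivative, also 129/Ola, in which auxin triggers degradation of Esrrb and Nr5a2. Its 54 libraries form 18 groups of 3, with auxin and without auxin, in asynchronous cells (async), in cells arrested in mitosis, and at 7 times after release from the arrest, which are every 10 minutes between 20 and 60, then 90 and 120 minutes. Sample titles give the arm, since the treatment label reads ctl for all samples. All RNA groups carry the degradable receptors, so loss of Nr5a2, loss of Esrrb and other effects of auxin cannot be told apart. The sources used here do not name the agent of the arrest or the time on auxin, nor whether the 3 libraries of a group were separate cultures or the derivative 1 clone.

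Nr5a2 is a nuclear receptor that binds DNA as a monomer, at an AGGTCA half-site preceded by a short extension, most often one that ends in CA. Esrrb, an orphan receptor of another subfamily, reads nearly the same letters, and both belong to the network of factors that holds mouse embryonic stem cells in the naive pluripotent state. During mitosis transcription largely stops and many factors leave the chromosomes, and both receptors are known for staying on part of their sites. Release from arrest lets genes restart within the following hour or so.

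RNA is given as TPM, a level scaled for gene length and library size. The table has 1 column per group, the authors' mean of 3 libraries, so no value below has a spread between replicates, no leave-out of a library and no test. The authors' call of each gene as lower or higher is used as deposited, and the sources used here do not state its test, threshold or stages. Listed genes sum to 17155 to 49059 TPM per group, and fewer cells of a type and less RNA per cell cannot be told apart in such values. Of 7 embryonic stem cell markers listed, all reached 1 TPM and together they had 41.2 to 142 TPM per group. Markers of other cells had summed levels of 1.65 to 4.43 TPM for 10 primitive endoderm genes and 1.64 to 7.65 TPM for 9 trophectoderm genes. For 10 germ layer genes the sums were 1.35 to 8.93 TPM and for 5 fibroblast genes 4.05 to 17.6 TPM. Of these other markers, 2 of primitive endoderm, 3 of trophectoderm, 2 of germ layers and 2 of fibroblasts reached 1 TPM in a group. Cdx2, Foxa2, Mixl1 and Twist1 were among those listed at 0 in at least 1 group.

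The eB peaks overlapped gene starts more often than the other classes did, and the letters of the half-site were found in part of those starts. RefSeq start windows on GRCm38.p6, each 250 bases before to 50 bases after a start, were searched on both strands. They number 32851 windows of 27025 genes. An eB peak overlapped 819 windows of 738 genes. CAAGGTCA was present in 57 of these 819 windows (6.96%), against 7.48% of windows with a dB peak, 7% with an nB peak, 4.48% with an L peak, 1.23% of windows with no peak and 1.56% of all windows. The 5 sequences below were chosen among genes of at least 1 TPM to show where the half-site stands in a start that an eB peak overlaps: 3 of genes called lower with auxin, the gene with the highest level, and the gene under one of the 5 widest eB peaks. Each runs 5′ to 3′ on the strand of the gene over the 250 bases before its start, in RefSeq sequence of GRCm38.p6. Capitals mark CAAGGTCA or, read from the other strand, TGACCTTG.
Triml2, chr8:43180286-43180535, plus strand: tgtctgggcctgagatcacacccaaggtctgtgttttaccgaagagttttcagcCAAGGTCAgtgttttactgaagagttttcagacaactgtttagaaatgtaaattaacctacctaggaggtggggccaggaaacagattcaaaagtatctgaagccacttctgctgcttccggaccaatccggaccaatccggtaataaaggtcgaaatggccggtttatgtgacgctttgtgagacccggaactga
Atp5g3, chr2:73911327-73911576, minus strand: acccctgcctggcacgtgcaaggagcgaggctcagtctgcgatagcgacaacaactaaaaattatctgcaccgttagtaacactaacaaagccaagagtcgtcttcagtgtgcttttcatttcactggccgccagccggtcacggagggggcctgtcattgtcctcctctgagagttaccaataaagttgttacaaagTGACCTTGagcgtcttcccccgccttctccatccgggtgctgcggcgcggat
Rrn3, chr16:13780449-13780698, plus strand: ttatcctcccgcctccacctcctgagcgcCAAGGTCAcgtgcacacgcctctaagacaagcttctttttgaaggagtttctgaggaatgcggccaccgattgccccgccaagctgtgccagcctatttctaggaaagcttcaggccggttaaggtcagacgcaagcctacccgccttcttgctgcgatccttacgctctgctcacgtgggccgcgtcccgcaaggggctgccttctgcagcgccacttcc
Rnf4, chr5:34336682-34336931, plus strand: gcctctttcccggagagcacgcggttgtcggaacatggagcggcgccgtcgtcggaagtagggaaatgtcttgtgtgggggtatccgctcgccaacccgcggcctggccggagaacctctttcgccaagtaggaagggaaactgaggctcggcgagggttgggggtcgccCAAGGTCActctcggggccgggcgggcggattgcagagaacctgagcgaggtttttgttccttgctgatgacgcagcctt
Sema4b, chr7:80186620-80186869, plus strand: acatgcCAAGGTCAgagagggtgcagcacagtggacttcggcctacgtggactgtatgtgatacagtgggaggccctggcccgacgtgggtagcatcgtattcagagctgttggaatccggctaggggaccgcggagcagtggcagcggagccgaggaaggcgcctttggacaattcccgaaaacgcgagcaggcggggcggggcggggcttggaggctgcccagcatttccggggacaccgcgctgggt

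The half-site of Triml2, a gene of the tripartite motif-like family, began at base -196, counted from its start, inside an eB peak of 1018 bases centred 27 bases upstream of the start. In Atp5g3, a subunit of the mitochondrial ATP synthase, it began at -52 on the opposite strand, and in Rrn3, an initiation factor of RNA polymerase I, at -221. In Rnf4, a ubiquitin ligase of SUMO-modified proteins, it began at -80 and in Sema4b, a transmembrane semaphorin, at -244. The position was thus not fixed, and over the 57 windows the first match began at a median of -118, with quartiles of -196 and -52. All 60 matches in these windows lay inside the eB peak, and the peaks covered 64.6% of the window on average. This was not particular to eB. All 28 matches with dB and all 45 with L lay in the peak, at mean coverage of 63.4% and 63.7%. With nB it was 5 of 7, at 61.0%. The median distance of the matches to the peak centre was 109 bases for eB, against 131 for dB, 188 for nB and 79 for L. A match is a description of letters, not a measured binding site.

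Other letters were also more frequent in eB-overlapped starts than in all starts, which differ in base composition. The median GC content was 60.7% in the 819 eB windows, against 59.7% for dB, 55.8% for nB, 55.0% for L and 52.7% in all windows. The ratio of observed to expected CpG was at least 0.6 in 69.2% of eB windows, against 68.1% for dB, 49.0% for nB, 37.9% for L and 35.8% of all windows. GGGCGG, the core of Sp factor sites, was present in 57.1% of dB, 48% of nB and 43.7% of L windows. It was present in 61.5% of eB windows and 35.7% of all windows. Restricted to genes of at least 1 TPM, that difference shrank to 68.8% against 66.1%, whereas CAAGGTCA was at 6.12% against 1.15%. CAAGGTCA was not alone in staying more frequent there. A YY1 site form was at 2.56% of eB windows and 0.633% of all windows, and at 3.67% against 1.86% among these genes. The cAMP response element was at 3.30% against 1.79%, and at 4.69% against 3.67% among these genes. The Nrf1 site was at 0.977% against 0.971%, and was less frequent among these genes, at 1.43% against 2.32%. CCAAT was at 38.1% of eB windows and 37.4% of all windows. The ETS form CCGGAAGT was at 6.96% of eB, 7.76% of dB, 5% of nB, 4.58% of L and 3.89% of all windows. The direction of eB against all windows turned among genes of at least 1 TPM, with 8.37% against 9.57%. The shorter AAGGTCA, contained in CAAGGTCA, was at 13.6% of eB windows against 4.72% of all windows. With dB it was at 10.5%, with nB at 10% and with L at 11.8%. The longer TCAAGGTCA, which contains CAAGGTCA, was at 1.47% of eB windows against 0.423% of all windows. It was more frequent with dB, at 3.05%, and with nB, at 4% of 100 windows, and less frequent with L, at 0.995%.

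The eB peaks were narrower than dB peaks and wider than nB and L peaks. Their median width, end minus start, was 765 bases with quartiles of 596 and 995, against 901 bases for dB, 663 for nB, 540 for L and 583 for the 3 other classes pooled. They ranged from 166 to 3433 bases, and 1584 of them (24.8%) were 1000 bases or wider, against 40.3% of dB, 18.4% of nB and 8.28% of L peaks. The eB peaks covered 5.36 Mb in all, 21.9% of the bases in peaks from 18.1% of the peaks. Across 10 groups of about equal size, made by ranking the whole list by width, the eB share was lowest, 3.38%, among the narrowest peaks of 145 to 335 bases. It was higher in each wider group, up to 30.0% among peaks of 1129 to 4582 bases, where dB had 30.8% and L 31.3%. The list gives no signal per peak, so whether the width goes with more reads was not tested.

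**Figure D1:**
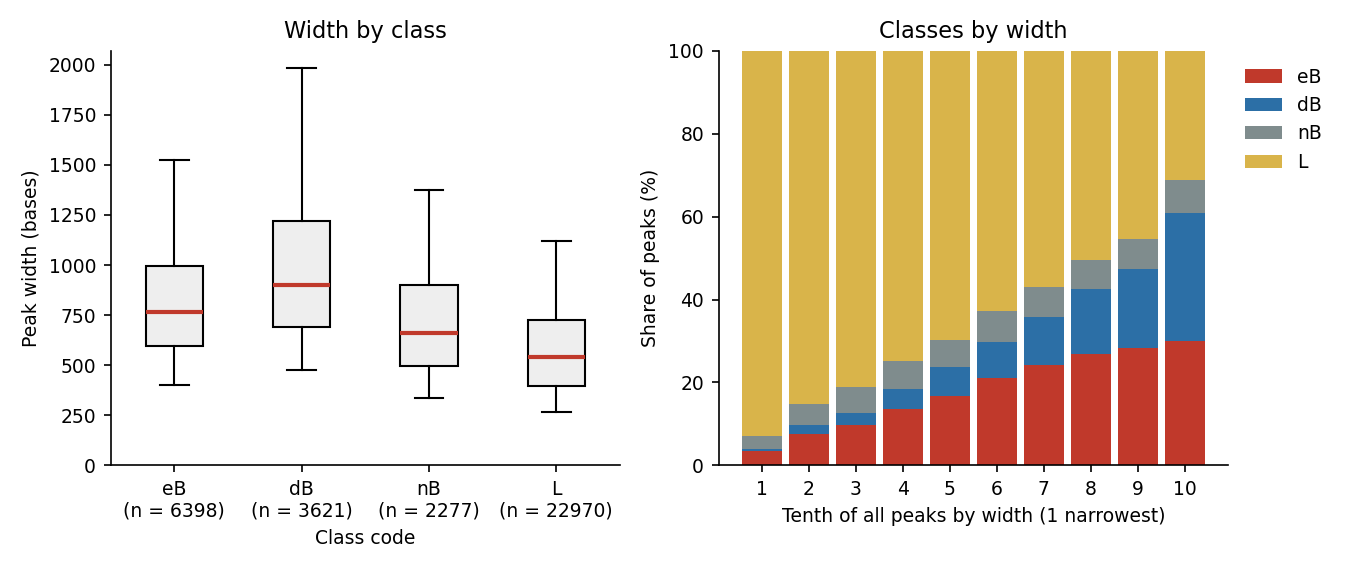
Left, peak width in bases by class code, with the median as a line, quartiles as a box and the 5th and 95th percentiles as whiskers; right, share of the 4 classes in 10 groups of about equal size, made by ranking all peaks by width. The eB median is 765 bases, between dB at 901 and nB at 663, and the eB share is 3.38% in the narrowest group and 30.0% in the widest.

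The widest eB peaks stood at genes of unlike levels. The widest, 3433 bases (chr11:51647374-51650807), lay in N4bp3, a gene for a protein that binds the ubiquitin ligase Nedd4. With auxin N4bp3 had 2.64 TPM in async cells, 1.22 TPM in mitosis and 5.45 TPM at 60 minutes, against 3.22, 1.59 and 6.87 TPM at the same stages without auxin. It was lower with auxin at all 7 release times and called lower. The others were a peak of 3189 bases lying 13010 bases from the gene Gm38509, one of 3145 bases in St3gal4, a sialyltransferase gene, one of 3093 bases in Sema4b, and one of 3034 bases 1246 bases from Wnt10a, a Wnt ligand gene. St3gal4 was called lower and was lower at all 7 release times, at 0.962 TPM with auxin and 1.09 TPM without auxin on average over those times. Wnt10a stayed at or under 0.338 TPM in all 18 groups and was not called. The narrowest were 166, 177 and 186 bases long, near Cic, Gpr176 and Gm19209, and each had another eB peak as its nearest neighbour, 450 to 1325 bases away.

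The eB share was nearly even over the autosomes and lower on the X chromosome. It was 18.3% of autosomal peaks (6349 of 34755) and 9.59% of X-linked peaks (49 of 511). Among autosomes it ran between 20.4% on chromosome 8 (396 of 1938) and 16.2% on chromosome 18 (176 of 1087). Chromosomes 15 and 5 followed chromosome 8 with 20.2% and 19.6%. The largest number, 581, was on chromosome 11. The 49 X-linked eB peaks were narrower, with a median width of 663 bases, and class L took 80.6% of the X-linked peaks against 65.1% of the whole list. A lower share on X was not particular to eB. Class dB made up 5.68% of X-linked peaks against 10.3% of the whole list, and nB 4.11% against 6.46%. Among peaks of at least the median width of the whole list the eB share was 14.4% on X (28 of 194) and 26.2% on the autosomes (4581 of 17461), a comparison that does not match widths peak by peak.

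**Figure D2:**
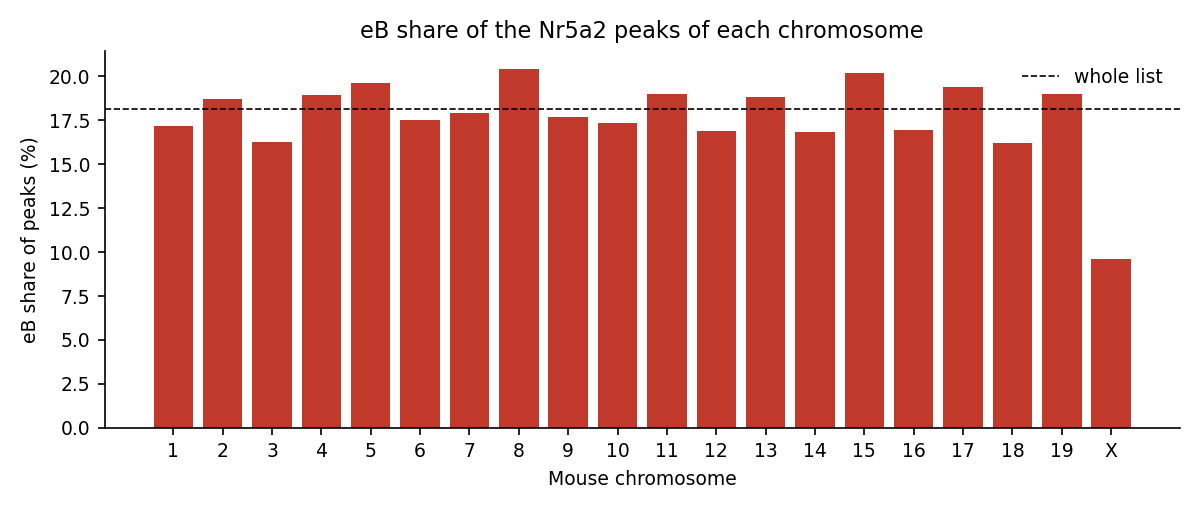
Share of each chromosome's Nr5a2 peaks that are of class eB, in percent, with the share over the whole list as a dashed line. The X chromosome, at 9.59%, is far below the autosomes, which lie between 16.2% and 20.4%.

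The eB peaks stood slightly farther from other peaks than the rest. The nearest peak of any class was at a median of 12542 bases between centres, against 9507 for dB, 7109 for nB and 10398 for L. Within 5 kb of 29.7% of eB peaks lay another peak, against 35.5% for dB, 41.2% for nB and 33.1% for L. The nearest eB peak was at a median of 74332 bases. For 21.3% of eB peaks the nearest peak was itself eB, against 19.0% for dB, 15.5% for nB and 16.3% for L peaks. The share was highest at short range: of the 926 eB peaks with a neighbour within 2 kb, 27.1% had an eB neighbour, against 19.6% of dB, 9.64% of nB and 13.5% of L peaks. Beyond 50 kb the eB share was 19.5%. At short range nB and dB peaks likewise had their own class as neighbour in 30.8% and 20.9%.

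When peaks less than 10 kb apart were joined into stretches, 3522 eB peaks (55.0%) stood alone, against 48.7% of dB, 42.2% of nB and 51.0% of L peaks. Another 1807 (28.2%) shared a stretch with peaks of other classes only, and 1069 (16.7%) with at least 1 other eB peak. Groups of eB peaks were small: 65 stretches held at least 3, 19 at least 4, 6 at least 5, and the largest number was 6. That largest stretch spans 109728 bases (chr17:29418283-29528011) and has 25 peaks, 6 eB, 2 dB, 3 nB and 14 L, around Pim1, a kinase gene downstream of LIF and STAT3. A single eB peak of the 6 lay within 10 kb of Pim1. The tightest of the 6 was a run of 7 peaks in 11841 bases (chr1:164449641-164461482), 5 of them eB, at Atp1b1, the beta subunit of the sodium pump. The remaining 4 lay at Grhl3, a grainyhead family transcription factor gene (chr4:135565987-135604591), at the gene group of Nek8, Tlcd1, Rpl23a, Rab34 and Proca1 (chr11:78166066-78195297), and in 2 intervals without a listed gene (chr12:86787109-86840069 and chr4:141544964-141575489).

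Most eB peaks lay in genes and a part of them close to gene starts. Of the 6398, 4103 (64.1%) overlapped a RefSeq gene span, against 59.3% of dB, 60.7% of nB and 60.2% of L peaks. A further 18.8% lay within 10 kb of a gene and 17.1% farther away, up to 426095 bases from the nearest gene. Start windows of chromosome 18 were not used here, and other genes lacked one too. Of the 8992 genes that reached 1 TPM in at least 1 group, 7303 had a start window. The starts of Tbx3, Prdm14, Dppa5a and Sall4 were among those missing. A peak at such a start was measured to another start. Of the 6222 eB peaks outside chromosome 18, 1004 (16.1%) had their centre within 1 kb of a start, against 11.6% of dB, 7.19% of nB and 6.87% of L peaks. Within 500 bases the shares were 9.08% for eB, 4.34% for dB, 3.44% for nB and 4.12% for L. Read the other way, eB made up 29.7% of all peaks centred within 250 bases of a start, 36.0% of those at 250 to 500 bases and 31.6% at 500 to 1000 bases. The share was 21.8% at 1 to 2 kb and 16.0% at 2 to 5 kb, and beyond 100 kb it was 18.4%. Width did not follow this pattern within the class: the eB median was 685 bases at 250 to 500 bases from a start and 786 bases at 2 to 5 kb.

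The eB peaks near starts sat on both sides of them. Within 1 kb their median offset was 53.5 bases downstream, and 48.6% had the centre upstream, against 59.7% of dB peaks with a median offset of -338 bases, 61.0% of nB with -271 and 52.9% of L with -55.8. Nr5a2 itself had a peak of this kind: an eB peak of 2360 bases (chr1:136951950-136954310) centred 500 bases downstream of a start. Esrrb had 2 eB peaks in its span, of 763 and 783 bases, among 17 Nr5a2 peaks in all.

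**Figure D3:**
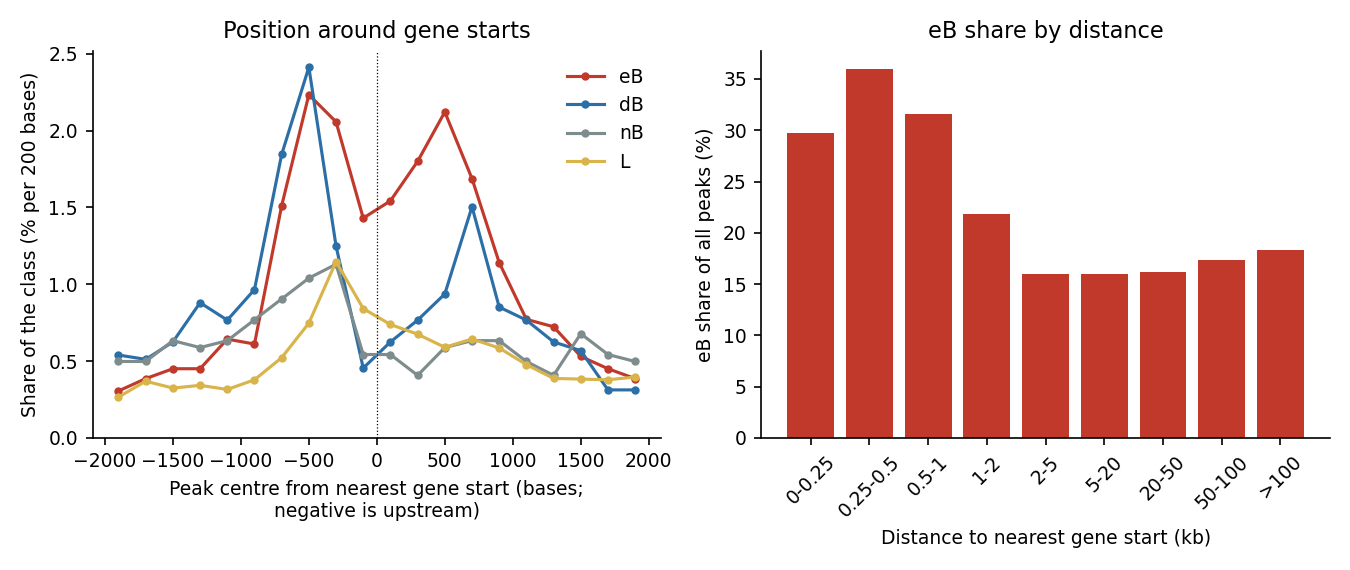
Left, position of peak centres around the nearest gene start for the 4 classes, as percent of the class per 200 bases, with upstream as negative; right, share of eB among all peaks by distance of the centre to the nearest start. The eB line has a maximum on each side of the start, and the eB share is 36.0% at 250 to 500 bases against 16.0% at 2 to 5 kb.

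Genes were joined to eB peaks where a peak overlapped the gene span or lay within 10 kb of it. Of 13949 listed genes with a position, 3934 had an eB peak. The counts that follow use the 8992 genes that reached 1 TPM in at least 1 group, of which 2523 had an eB peak. The other 1411 genes with an eB peak stayed under 1 TPM. Of the eB peaks, 2442 (38.2%) had no listed gene within reach and 892 (13.9%) had at least 2.

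Genes with an eB peak were called lower with auxin more often, and higher less often, than the genes at large. By the calls in the authors' deposited table, 420 of the 2523 (16.6%) were lower, where 9.46% of all genes counted were. Called higher were 155 (6.14%), where 8.52% of all genes counted were. The share called lower was 21.0% for genes with a dB peak, 17.97% with an nB peak and 13.6% with an L peak, sets that overlap with one another and with eB, so a raised share was not particular to eB. With peaks of other classes but no eB peak, 9.33% of 3946 genes were called lower and 8.19% higher, and with no peak 2.50% of 2523 genes were called lower and 11.4% higher. Lower with auxin at all 7 release times were 251 of the genes with an eB peak (9.95%), against 5.34% of all, and higher at all 7 were 76 (3.01%), against 3.87% of all. The size of the difference was small. On the log2(TPM + 1) scale, which understates changes of low genes, the median difference over the release times was -0.00 for genes with an eB peak and 0.02 for all genes counted. It was below 0 for 1266 of them (50.2%), where 39.2% of all genes counted were below 0. In async cells the median difference was -0.06 against -0.04.

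An eB peak alone did not go with that share. The 684 genes with eB and no other class were called lower in 5.70% and higher in 5.26%, while the 1839 with eB and another class were at 20.7% and 6.47%. Genes whose single peak was eB were called lower in 5.58% of 591, against 8.46% for a single dB peak, 3.08% for a single nB peak and 3.96% for a single L peak. With eB and dB the share was 27.6% of 617 genes, and with eB but no dB 13.1% of 1906. By number of eB peaks, the share called lower was 13.9% with 1, 24.4% with 2 and 36.0% with 3 or more (41 of 114), and 7.02% of the last were called higher. With 3 or more peaks of another class the share called lower was 65% for dB (26 of 40), 27.6% for nB (8 of 29) and 27.0% for L (297 of 1101), so the gradation was not particular to eB either. Those 114 genes had a median of 7 peaks of any class and a median span of 89208 bases, against 21832 bases for all genes counted, so number of eB peaks, number of all peaks and span cannot be told apart in that row of counts. When the genes counted were split by span into 5 groups of about equal size, those with an eB peak were called lower in 16.0% of the shortest group and 19.5% of the longest. Genes with other classes only were at 10.9% and 9.80% in these groups, and genes with no peak at 6.01% and 0.386%.

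**Figure D4:**
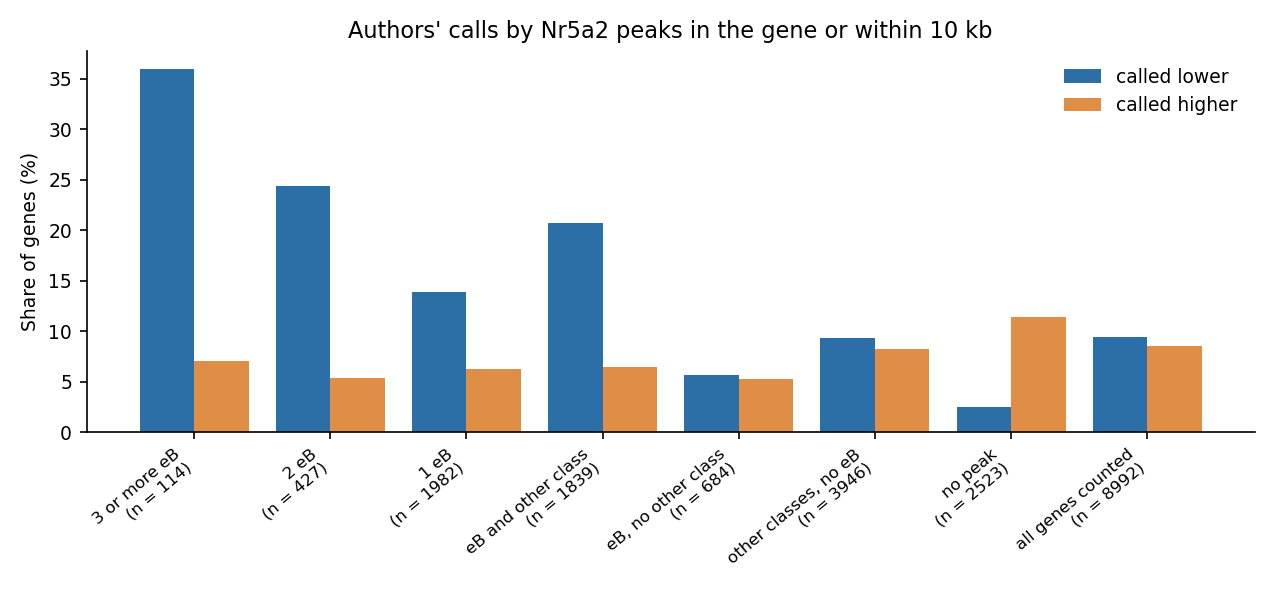
Share of genes that the authors' deposited table calls lower or higher, by the Nr5a2 peaks in the gene or within 10 kb, among genes of at least 1 TPM in a group; sets overlap. The share called lower is 36.0% with 3 or more eB peaks, 5.70% with eB and no other class and 2.50% with no peak.

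Distance of the eB peak to the start gave a further gradation among genes with a start window. Genes whose nearest eB peak lay within 1 kb of a start were called lower in 17.0% (of 670) and higher in 4.33%, and at 1 to 5 kb the shares were 20.1% (of 348) and 6.32%. At 5 to 20 kb they were 13.7% and 4.41%, at 20 to 50 kb 9.08% and 6.23%, and beyond 100 kb 5.13% and 12.2% (of 2690). Where an eB peak overlapped the start window itself, 73 of 444 genes (16.4%) were called lower and 16 (3.60%) higher. The corresponding shares called lower were 24.4% of 205 genes for dB, 10.6% of 47 for nB, 19.3% of 368 for L and 7.50% of 6252 with no peak there. Of the 30 counted genes with CAAGGTCA in an eB-overlapped start, 4 (13.3%) were called lower and 2 higher, and 19 had a mean difference below 0. Of all 444 genes with an eB-overlapped start, 16.4% were called lower, 3.60% higher, and 54.5% had a difference below 0. With CAAGGTCA in a start overlapped by another class, 6 of 13 genes were called lower for dB, 0 of 5 for nB and 4 of 10 for L.

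The return of RNA after mitosis did not set these genes apart. Without auxin, 48.4% of genes with an eB peak were at least 2-fold above their mitotic level at 60 minutes, where 50.8% of all genes counted were. The median log2 ratio to mitosis at 60 minutes was 0.97 against 1.01, and it was 0.67 for genes with 3 or more eB peaks. Genes with an eB peak over the start window reached 2-fold in 56.3% of 444, and genes with eB and no other class in 57.6% of 684.

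Naive pluripotency genes with an eB peak were called lower throughout, in a list that was mostly called lower with or without eB peaks. The shares to read the list counts against are 9.46% called lower and 8.52% called higher of all genes counted, and 16.6% and 6.14% of genes with an eB peak. These shares are of genes that reached 1 TPM, a filter that the list counts do not have. Without it the shares were 7.26% and 6.74% of all genes, and 12.7% and 4.98% of genes with an eB peak. An eB peak was present at 3934 of all 13949 genes with a position. Of 35 listed members with a position, 17 had an eB peak, and all 17 were called lower. The list as a whole was called lower in 28 of 35, so 11 of the 18 members without an eB peak were called lower too. Over the 15 with an eB peak that reached 1 TPM, the median of the mean log2 differences was -0.33, where all genes counted had 0.02. The 17 held 29 eB peaks: Esrrb, Nr0b1, Utf1 and Mycn had 2 each, Tfcp2l1 had 3, and Mybl2 and Fgf4 had 4 each, the most of the list. The rest, Nr5a2, Tbx3, Zfp42, Prdm14, Dppa5a, Tdgf1, Manba, Tet2, Sall4 and Ooep, had 1 each.

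Mybl2, a transcription factor of cycling cells, had eB peaks of 306, 648, 1644 and 1742 bases, 1 upstream and 3 in its span. With auxin it had 12.2 TPM in async cells, 14.1 in mitosis, and 13.7, 13.2, 13.0, 16.4, 19.5, 21.9 and 19.4 TPM from 20 to 120 minutes. Without auxin it had 18.4 TPM in async cells, 16.6 in mitosis, and 16.9, 17.0, 17.1, 19.0, 23.7, 27.7 and 28.4 TPM. It was lower with auxin at all 9 stages, with log2 differences of -0.56 in async cells and -0.53 at 120 minutes.

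Tfcp2l1, a transcription factor of the naive state, had eB peaks of 661, 1948 and 984 bases, all in its span, the first centred 1280.5 bases from a start. With auxin it had 0.860 TPM in async cells, 1.23 in mitosis, and 1.21, 1.15, 1.29, 1.56, 1.78, 1.13 and 0.854 TPM after release. Without auxin it had 2.47 TPM in async cells, 2.05 in mitosis, and 2.04, 1.83, 1.79, 2.54, 3.28, 3.08 and 2.45 TPM. The arms thus already stood apart in mitosis, and with auxin the level at 120 minutes was under the mitotic one.

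Fgf4, the growth factor that drives exit from the naive state, had 4 eB peaks of 979 to 1490 bases, 1 of them in its span. Its levels with auxin were 0.386 TPM in async cells, 0.139 in mitosis, and 0.117, 0.194, 0.258, 0.429, 0.517, 0.460 and 0.482 TPM after release. Without auxin it had 0.576, 0.170, 0.147, 0.229, 0.309, 0.517, 0.746, 0.904 and 0.939 TPM over the same stages. It stayed under 1 TPM in every group, and the arms parted mainly from 60 minutes on.

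Zfp42, the Rex1 transcription factor and a common marker of naive cells, had an eB peak of 381 bases centred 113.5 bases upstream of a start. The arm with auxin had 35.2 TPM in async cells, 16.7 in mitosis and 28.9 and 46.5 TPM at 60 and 120 minutes. Without auxin it had 52.8, 18.6, 43.2 and 61.3 TPM at these stages. Nr0b1, a nuclear receptor without a DNA-binding domain that represses other receptors, had eB peaks of 700 bases over its start and of 1018 bases upstream. It had 0.241 TPM in async cells and 0.537 TPM at 120 minutes with auxin, against 1.10 and 1.73 TPM without auxin, while in mitosis it had 0.589 TPM with auxin and 0.703 TPM without auxin.

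**Figure D5:**
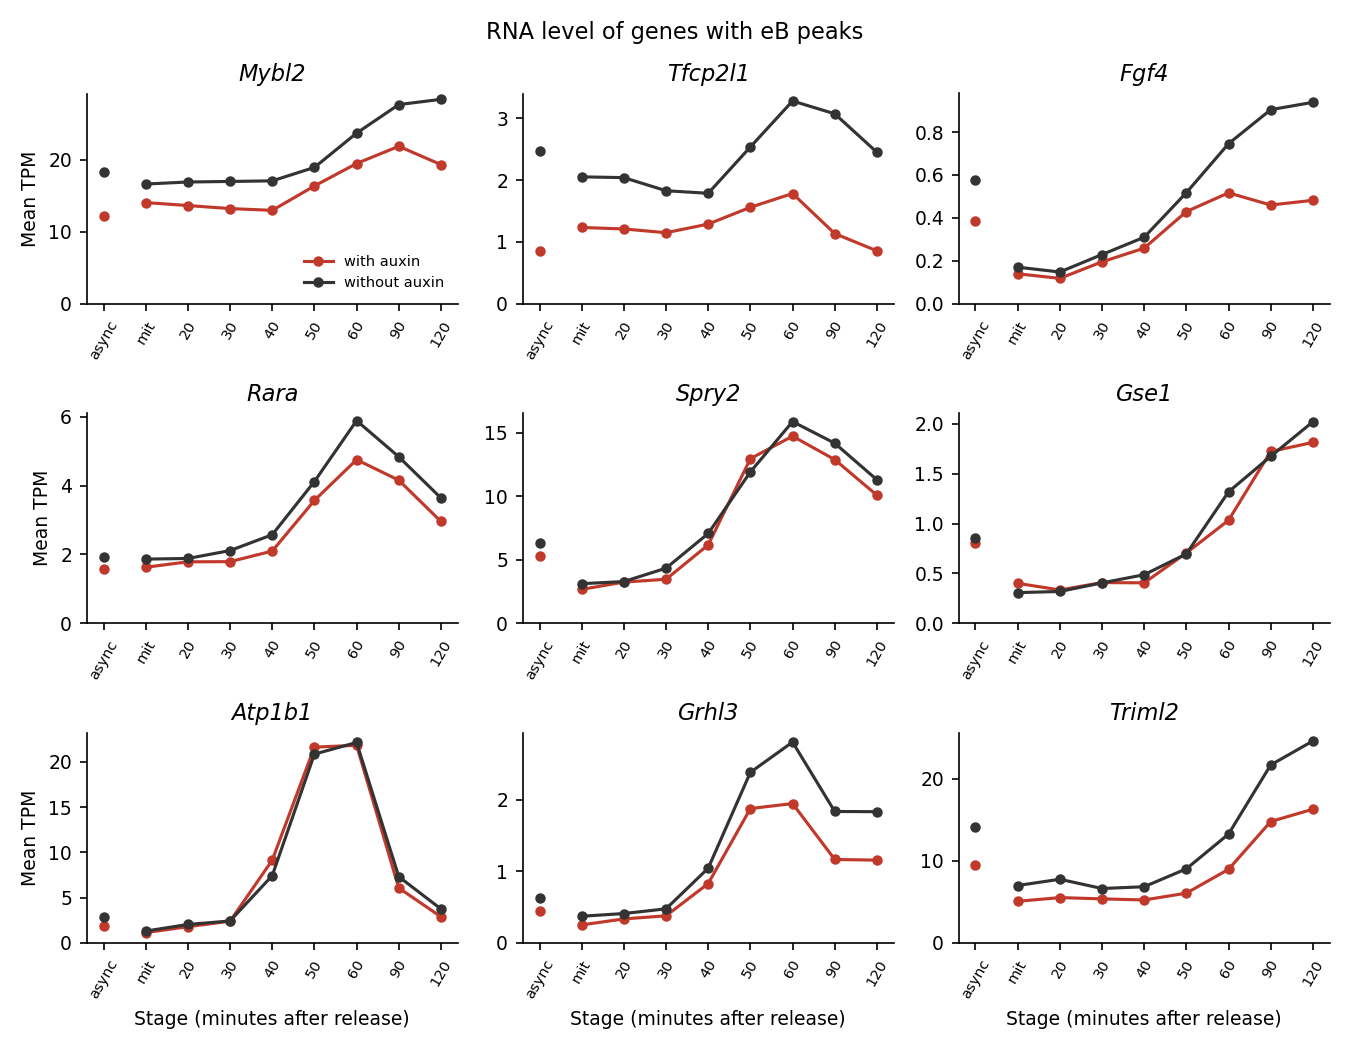
Mean TPM of 9 genes with eB peaks in asynchronous cells (async), in mitosis (mit) and at 20 to 120 minutes after release, with auxin and without auxin; each point is the authors' mean of 3 libraries, so there are no error bars. Mybl2, Tfcp2l1, Fgf4, Grhl3, Rara and Triml2 are lower with auxin at all 7 release times, whereas the lines of Atp1b1, Gse1 and Spry2 cross.

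In LIF and JAK-STAT3 signalling, the pathway that sustains mouse embryonic stem cells, 6 of 16 members had an eB peak. Called lower were the receptor subunit genes Lifr and Il6st and the target kinase genes Pim1 and Pim3, called higher was the kinase gene Jak1, and Socs3, the feedback inhibitor, was not called. The whole list of 16 had 5 called lower and 1 called higher. The median difference of the 6 members with an eB peak was -0.19, where all genes counted had 0.02. With auxin Pim1 had 1.29 TPM at 30 minutes and 8.22 TPM at 60 minutes, against 2.10 and 8.83 TPM without auxin. Jak1 had 2 eB peaks and averaged 2.20 TPM with auxin and 1.99 TPM without auxin over the release times. Socs3 had eB peaks of 2242 and 1189 bases on either side and was lower with auxin at 5 of 7 times.

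Among nuclear receptors and their coregulators, 17 of 29 members had an eB peak, of which 6 were called lower and 0 higher, with a median difference of -0.06 over the 16 that reached 1 TPM. Of all genes with an eB peak that reached 1 TPM, 16.6% were called lower, and 12.7% without that filter. The whole list of 29 had 6 called lower and 2 called higher. These 6 were Esrrb, Nr5a2 and Nr0b1, shared with the naive list, the retinoic acid receptor genes Rara and Rarg, and the coactivator gene Ncoa3. Rara had 5 eB peaks of 953 to 1487 bases in its span. With auxin it had 1.57 TPM in async cells, 1.63 in mitosis and 4.75 and 2.96 TPM at 60 and 120 minutes, against 1.92, 1.86, 5.89 and 3.64 TPM without auxin. Esrra, an estrogen-related receptor gene, was lower at all 7 release times (means of 1.93 TPM with auxin and 2.27 TPM without auxin) and not called. The orphan receptor genes Nr2c1 and Nr2c2, the circadian repressor genes Nr1d1 and Nr1d2, and Ppard, Thra, Nr2f6, Ncoa1 and Nrip1 were among those with eB peaks that were not called.

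Of 16 formative and primed pluripotency genes 11 had an eB peak, with 2 called lower, the transcription factor genes Etv5 and Tcf15, and 2 called higher, Lef1 and Foxn3. Of all genes with an eB peak that reached 1 TPM, 16.6% were called lower and 6.14% higher, or 12.7% and 4.98% without that filter. Counts over 11 genes are coarse beside such shares. The whole list of 16 had 4 called lower and 3 called higher. The median difference of the 8 that reached 1 TPM was -0.04. Spry2, an inhibitor of growth factor signalling, had 4 eB peaks and was not called. With auxin it had 2.67 TPM in mitosis and 13.0 and 14.7 TPM at 50 and 60 minutes, against 3.12, 11.9 and 15.9 TPM without auxin. Otx2, Dnmt3a, Zic2, Zic5 and Dusp6 were among those with eB peaks and no call. Of 17 Wnt and beta-catenin genes 5 had an eB peak, with Lef1 and Axin2 called higher and Tcf7, Gsk3a and Lrp5 not called. The whole list of 17 had 1 called lower and 3 called higher. Of 18 chromatin organisers and Mediator subunits 4 had one, with the cohesin subunit gene Stag1 called higher and Smc3, Med1 and Med13l not called. The whole list of 18 had 1 called lower and 5 called higher. Markers of other lineages also had eB peaks: 6 of 10 for primitive endoderm, 4 of 9 for trophectoderm, 1 of 10 for germ layers, which was Pax6, and 0 of 5 for fibroblasts. Over all genes with a position, 3934 of 13949 had one, so an eB peak was not particular to the naive list.

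The genes with the most eB peaks were mostly long genes of low level. Gse1, a gene for a coiled-coil protein, had 10 within 352883 bases, and Prdm16, a zinc finger regulator gene, had 9 within 321239 bases. Gse1 was called lower although it was lower with auxin at 3 of 7 times, with 1.03 and 1.81 TPM at 60 and 120 minutes with auxin and 1.32 and 2.02 TPM without auxin. Prdm16 stayed at or under 0.185 TPM and was not called. Magi1, Pde4d, Arhgap26 and Fam189a1 had 6 each and Tns3, Pitpnc1, Arid5b, Etl4, Rara and Atp1b1 had 5 each. Of these 12, 6 were called lower and 1, Pde4d, higher, where 36.0% of genes with 3 or more eB peaks were called lower and 7.02% higher.

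Rara, at 47143 bases, and Atp1b1 were the exceptions in span. Atp1b1 had 5 eB peaks in or near 21257 bases. With auxin it had 1.85 TPM in async cells, 1.15 in mitosis, and 1.80, 2.41, 9.14, 21.6, 21.8, 6.07 and 2.89 TPM after release. Without auxin it had 2.89 TPM in async cells, 1.31 in mitosis, and 2.04, 2.43, 7.43, 20.8, 22.1, 7.32 and 3.75 TPM. Both arms showed a short wave, the arm with auxin was the higher one at 40 and 50 minutes, and the gene was called lower. Its log2 ratio to mitosis at 60 minutes, 3.32, was shared to 2 decimals by Idi1, an isoprenoid enzyme gene with an eB peak centred 34.5 bases from its start, as the highest among genes with an eB peak. Irs2, an insulin signalling adaptor gene, at 3.31, and Gzmm, at 3.25, followed, and Rpl10a, at 3.25, has close copies in the genome, so its value is uncertain.

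Grhl3, with 5 eB peaks in its span or within 10 kb, had 0.447 TPM in async cells, 0.252 in mitosis and 1.95 and 1.16 TPM at 60 and 120 minutes with auxin. Without auxin it had 0.624, 0.373, 2.80 and 1.83 TPM at these stages, and it was called lower. Of the 5 genes of the group at Nek8 on chromosome 11, with 3 or 4 eB peaks each, 0 were called. Among all genes with 3 or more eB peaks, 36.0% were called lower and 7.02% higher. The 5 neighbours share eB peaks with one another, so they are not separate observations. Rpl23a, a ribosomal protein gene with close copies and thus an uncertain value, averaged 24.6 TPM with auxin and 24.0 TPM without auxin over the release times. Nek8, a kinase gene of cilia, averaged 2.78 TPM with auxin and 2.75 TPM without auxin.

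The largest differences among genes with an eB peak and the matching call were in the lower direction. Gm38509 had a mean log2 difference of -0.68, Ntn1, an axon guidance cue gene with 3 eB peaks, -0.66, and Ldhb, a lactate dehydrogenase gene with an eB peak of 2584 bases upstream, -0.61. Ntn1 had 0.942 TPM in async cells, 3.99 in mitosis and 2.46 TPM at 120 minutes with auxin, against 3.48, 6.33 and 7.17 TPM without auxin. It was higher in mitosis than in async cells in both arms. Tfcp2l1 at -0.58, Dppa5a at -0.53, Zc3h12a, an RNase gene, at -0.51, Utf1 at -0.50, Nid2, a basement membrane gene, at -0.48, Zfp57, a guardian of imprints, at -0.45, and Triml2 at -0.45 complete the 10 lowest. Triml2, whose start is printed above, had 9.45 TPM in async cells, 5.07 in mitosis and 8.96 and 16.3 TPM at 60 and 120 minutes with auxin, against 14.2, 6.99, 13.2 and 24.6 TPM without auxin.

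Among genes called higher, Zc3h7a, a CCCH zinc finger gene, had the highest mean difference, 0.49, but it rested on a single column. It had 88.5 TPM at 40 minutes with auxin against 4.10 TPM without auxin, and it was higher with auxin at 3 of 7 times. Without 40 minutes its mean difference was -0.11. Gphn, a scaffold gene of inhibitory synapses, at 0.27, Mdm4, a p53 inhibitor gene with 2 eB peaks in its span, at 0.18, Sulf1, Sall3, Slc27a2, Jag1, Neat1, Acot13 and Ccng1 followed, and these 9 were higher at all 7 times. Gphn also rested mainly on 40 minutes, with 2.62 TPM with auxin against 0.299 TPM without auxin, and without that time its difference was 0.07. For Ccng1 the difference was 0.17 with and 0.10 without 40 minutes. These values were computed after seeing the data. Slc27a2, a fatty acid carrier gene, had an eB peak of 929 bases centred 542.5 bases upstream of its start and no other Nr5a2 peak. It had 3.58 TPM in async cells, 2.65 in mitosis and 0.525 TPM at 120 minutes with auxin, against 2.31, 2.18 and 0.386 TPM without auxin. Its level went down at each step after release in both arms. Ccng1, a p53 target gene, also had a single peak, eB of 817 bases centred 313.5 bases downstream of its start, with 20.9 TPM at 40 minutes with auxin and 14.2 TPM without auxin.

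The genes of the highest level with an eB peak over the start were mostly housekeeping genes without a call. With auxin Tomm20, a mitochondrial import receptor gene, had 31.8 TPM in mitosis and 50.9 TPM at 60 minutes, and 30.6 and 50.6 TPM without auxin. Pkm, a pyruvate kinase gene, had 24.0 and 33.9 TPM with auxin, and 22.9 and 33.0 TPM without auxin. The splicing factor genes Tra2b, Srsf2, Ddx39b and Hnrnph1, and Tbrg4 and Ptcd3 of mitochondrial RNA metabolism, were not called either. Zfp42 and Ccng1 were the 2 called genes of these 10, in opposite directions. Of all 444 genes with an eB-overlapped start, 16.4% were called lower and 3.60% higher. A count over 10 genes is coarse beside such shares.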

How the data were processed

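The authors deposited RNA levels as TPM, with 1 column per group, the mean of 3 libraries, together with their call for each of 13957 genes. The submitters' processing notes list STAR, RSEM, DESeq2, Bowtie2 and MACS2, with no versions, and the mm10 build. The sources used here do not say which tool made which file, nor whether the TPM are of spliced or unspliced RNA. TPM keeps no depth, so the depth per library is unknown. The peaks are 1 list over the ChIP-seq libraries, with no score, and whether starts count from 0 or from 1 is not stated. Width is end minus start.

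From the deposited files, Python 3.11.15 with pandas 2.3.3 and numpy 2.4.6 computed widths, distances between peak centres, stretches (gaps up to 10 kb) and overlaps with RefSeq genes of GRCm38.p6, the assembly of mm10. Positions were found for 13949 genes. Levels were compared as log2(TPM + 1), with auxin minus without auxin, averaged over 7 release times, for genes of at least 1 TPM in a group. The planned limma test could not be run on group means. Scripts were tested on simulated data. Genes named are those of the pathway lists with an eB peak, the 12 with the most eB peaks, the 10 lowest and 10 highest differences with the matching call, the 5 highest and 5 lowest ratios of 60 minutes to mitosis, those at the 5 widest peaks, the 5 most distant peaks and the stretches with the most eB peaks, and the 10 of highest level with an eB peak over the start. The members and lists were chosen with earlier results of these data known. The analyses by distance to starts, by span and of half-site positions were added after seeing the data.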

Additional observations from a re-analysis of the deposited data

How the results depend on the processing

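Over 12 results, 61 alternative settings gave 28 values close to the reported one, 32 that moved and 1 that turned. The median width of eB peaks was 1.31 times that of the other classes pooled and 0.849 times that of dB alone. The number of eB peaks in a stretch with another eB peak, 1069, was 625 with gaps of 5 kb, 2139 with 25 kb and 352 for eB peaks of at least median width. For peaks of at least median width the eB share was 14.4% on X and 29.0% on chromosome 8. The share within 1 kb of a start was 15.1% with 1 start per gene and 14.5% for wide eB peaks, both added after seeing the data. Genes with an eB peak numbered 1465 for the gene span alone and 4626 within 50 kb. Their share called lower was 19.8% for the gene span alone, 18.5% within 2 kb, 12.7% within 50 kb, 15.2% at 5 TPM or more, 20.9% for wide eB peaks, 26.8% with at least 2 eB peaks and 5.70% with eB and no other class. Without a filter it was 12.7%, where 7.26% of all genes were called lower. Their share called higher was 7.37% for the span alone, 8.78% by the nearest gene of each peak, 4.98% without a filter, where 6.74% of all genes were called higher, 4.69% at 5 TPM or more and 5.26% with eB and no other class. The median difference of genes with an eB peak, less that of all genes counted, was -0.0158. It stayed below 0 under the 20 settings tried, at -0.0243 with a pseudocount of 0.1, -0.00580 by nearest gene, -0.00694 with eB and no other class, -0.0300 with at least 2 eB peaks and -0.00714 without a filter; the window, class and filter settings of this difference were added after seeing the data. The median log2 ratio of 60 minutes to mitosis, 0.97, was 1.46 with a pseudocount of 0.1, where all genes had 1.51, and 0.53 without a filter, where all genes had 0.58. It turned to -0.0194 under quantile normalization, where all genes had 0.0187, since that scaling takes out the shift common to all genes. CAAGGTCA was replaced by AAGGTCA, at 13.6%, and by TCAAGGTCA, at 1.47%, a form added after seeing the data. No paired analysis was possible because the table has 1 mean column per group, with no library to pair; for the same reason leaving out replicates and limma were not run. Windows around peak centres were not searched for letters and no stricter peak threshold was tried, since no genome sequence was used here and the list has no score. Depth limits what low TPM values can show, and no interval can be given.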

Other observations

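Neighbouring genes shared an eB peak in the interval of Zfp42 on chromosome 8, an interval singled out after its values were seen. The eB peak of 1018 bases over the start of Triml2 (chr8:43180000-43181018) also lies in the listed span of Triml1. Its centre is 39023 bases upstream of the nearest listed start of Triml1. Zfp42, with its own eB peak of 381 bases, lies beyond Triml2. All 3 genes were called lower and were lower with auxin at all 7 release times. Triml1 had another course after release than the other 2: with auxin it had 5.10 TPM in mitosis and 2.79 TPM at 60 minutes, against 6.40 and 3.43 TPM without auxin. Its lowest release level came at 60 minutes in both arms. The spans of Triml1 and Triml2 overlap, and the sources used here do not state whether counting used strand, so the split of reads in the overlap is uncertain.

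Genes with an eB peak and the lowest ratio of 60 minutes to mitosis without auxin included Slc27a2, described above, and Ide, a gene for an insulin-degrading protease. With auxin Ide had 1.88 TPM in mitosis, with 0.722 and 2.48 TPM at 60 and 120 minutes, against 1.81, 0.833 and 2.56 TPM without auxin. The genes 1700030C10Rik and 1190005I06Rik were listed at 0 in several groups, so their log2 ratios of -0.99 and -0.89 rest on levels near the floor of the table.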
